A study of Mus musculus with 24 samples.

Results

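Venus-positive epithelial cells of the mouse jejunum were compared directly with Venus-positive epithelial cells of the ileum. The cells came from the Guca2a-Venus reporter mouse, in which the yellow fluorescent protein Venus replaces the coding sequence of Guca2a, the gene of the peptide guanylin, within a bacterial artificial chromosome that is carried as a transgene. The libraries were picked by their labels alone, and 6 of the 24 libraries of the study belonged to the comparison. Of these, 3 came from strongly fluorescent cells of the jejunum, taken as a short length from the middle of the small intestine, and 3 from strongly fluorescent cells of the ileum, its last stretch. All animals carried the same transgene, were fed standard chow freely and received no treatment, and neither age nor sex was given in the labels. Cells that took up DAPI (dead cells), lacked DRAQ5 staining (debris) or carried CD45 (immune cells) had been gated out. Non-fluorescent cells from both regions, 3 libraries each, served as a background for regional differences that were not tied to Venus. The reporter line was derived from 1 founder, and reads from transgene and endogenous transcripts of Guca2a cannot be told apart where they share sequence.

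Along the small intestine, the absorptive epithelium changes its work. The jejunum is known for taking up most fat, sugar and amino acids, while the ileum reclaims bile acids and vitamin B12 and faces more bacteria. GATA4, a zinc-finger transcription factor, holds the jejunal programme in place, and its loss lets ileal genes appear in jejunal cells. Guanylin and its relative uroguanylin are secreted into the lumen, bind guanylate cyclase C on enterocytes and raise cyclic GMP, which opens the chloride channel CFTR and inhibits the sodium-hydrogen exchanger NHE3. The guanylin gene is known to be active in secretory and in absorptive cells of the epithelium, so that a Venus-positive sort can hold a mixture of cell types.

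Reads counted on genes ranged from 10634367 to 18878119 in the 6 libraries. A floor of 3 counts corresponded to between 0.162 and 0.221 normalised CPM (read counts per 1000000 counts of the TMM-scaled library), the unit of every level below, and such floors cover counting error only. Mitochondrially encoded genes took 50.05%, 60.6% and 47.1% of the counts in jejunum libraries 1, 2 and 3, and 53.5%, 55.4% and 41.0% in ileum libraries 1, 2 and 3 (two-sided exact permutation test, p = 0.7, where 3 against 3 cannot go below 0.1). Epithelial identity was plain in every library, as the enterocyte villin gene Vil1 stood at 1308, 1609.6 and 1341 in the jejunum libraries and 884, 1376 and 1318 in the ileum libraries. Summed over the 11 enterocyte markers that are not fat absorption genes, the level was 9353, 9488 and 10514 in jejunum and 7908, 11429 and 12550.5 in ileum, so that the groups overlapped. All 14 enterocyte markers, the other 3 being fat absorption genes, summed to 33892, 28619.7 and 32108 in jejunum and 10046, 16721 and 19699 in ileum, without overlap. The 38 goblet cell genes summed to 4823, 2183 and 6100.2 in jejunum and 11650.4, 5257 and 7254 in ileum. The Paneth cell list outside the defensins summed to 2816, 1095 and 9691 in jejunum and 5892, 3172 and 4882 in ileum, with jejunum library 2 the lowest and jejunum library 3 the highest of all 6. That list holds Guca2a, the gene that drives the reporter, and Spink4, Agr2 and Ang4, which are also in the goblet cell list. The 26 stem and proliferating cell genes summed to 137, 158 and 424 in jejunum and 389.7, 306 and 373 in ileum, with the first 2 jejunum libraries below the rest. Of these genes, 2 were called higher in ileum and none in jejunum (median log2 fold change -0.78), beside 3.00% of all genes tested. The count was 8 without jejunum library 3, 1 without jejunum library 1 or 2 or ileum library 1 or 2, and 0 with the compared libraries fitted alone. Immune cell genes summed to between 4.99 and 14.1 in jejunum and between 12.6 and 47.8 in ileum, and the stromal and endothelial list to between 1.28 and 1.79 against between 2.501 and 3.18. In bulk libraries, fewer cells of a type and less RNA per cell cannot be told apart. Across log2 levels, replicates of a group correlated at between 0.946 and 0.963 and libraries of different groups at between 0.910 and 0.948, the last being jejunum library 3 with ileum library 3.

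Of 15044 genes tested with edgeR's quasi-likelihood test, 775 (5.15%) differed between jejunum and ileum at a Benjamini-Hochberg adjusted p under 0.05. The log2 fold changes below are jejunum over ileum with their standard errors, and each adjusted p is from that test over all genes. There were 323 genes (2.15%) higher in jejunum and 452 genes (3.00%) higher in ileum. Of these, 302 and 437 changed at least 2-fold. No library of one region overlapped with the other region in 319 and 420 of these genes, against 19.3% of all genes tested. The counts of each gene list below are to be read beside the shares of 2.15% for jejunum and 3.00% for ileum. List counts at an unadjusted p under 0.05 in edgeR's test are to be read beside 2584 of the 15044 genes tested. The median log2 fold change over all genes tested was -0.04. Scaling by library size alone moved that median to -0.30 and the share of jejunum-high genes among the calls from 41.7% to 23.1%, with 207 and 690 genes called. Single libraries moved the counts. With jejunum library 1 left out, 218 and 235 genes were called higher in jejunum and in ileum; without jejunum library 2, the counts were 246 and 228. Without jejunum library 3 they were 322 and 696, and without ileum library 1 they were 233 and 292. The libraries carried either of 2 i5 index sequences, with 2 jejunum libraries and 1 ileum library on the first. The direction was the same within both for 769 of the 775 genes. For the 319 and 420 genes without overlap, any split of the libraries keeps the direction. The count therefore does not test an effect of the index.

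**Figure D1:**
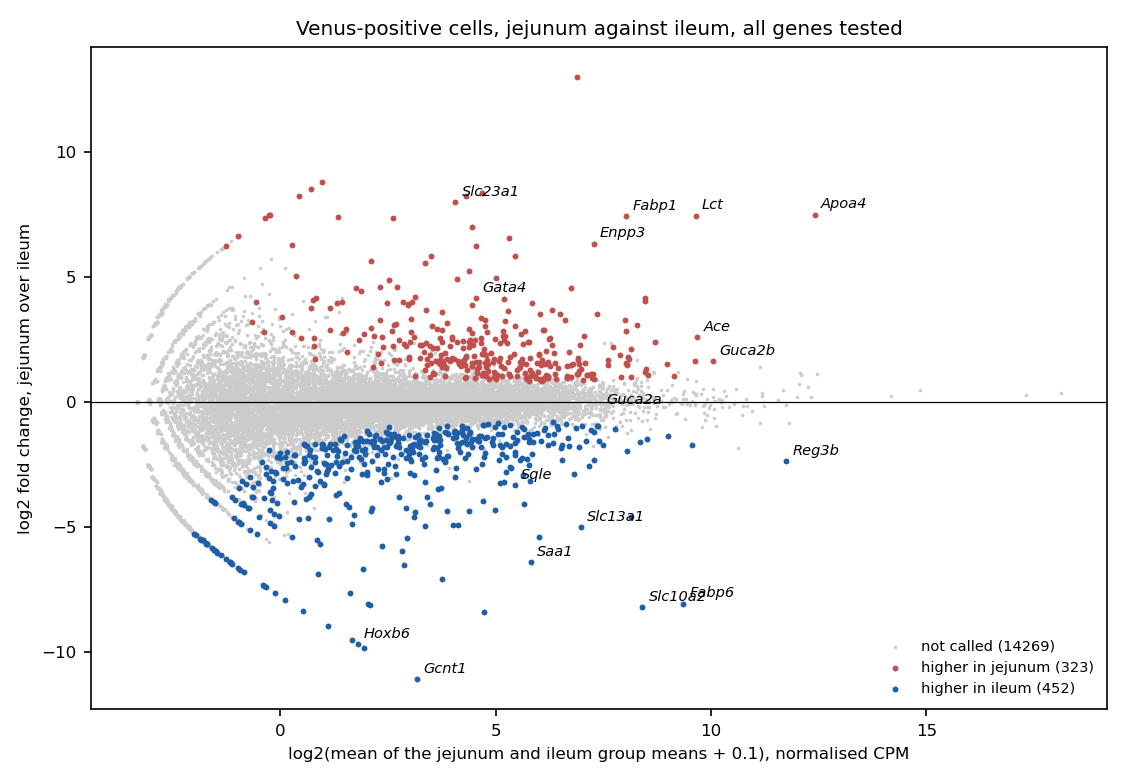
Log2 fold change of jejunum over ileum in Venus-positive cells (y axis) against the mean level on a log2 scale (x axis, normalised CPM with 0.1 added) for the 15044 genes tested. Red points are the 323 genes called higher in jejunum, blue points the 452 called higher in ileum and grey points the genes not called. Genes with no counts in 1 region lie on the outer curves, where the fitted fold change depends on the prior count and is no measured size. The unlabelled red point at the top is Plekhh2, which was read in a single jejunum library.

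Of 27 tested genes of the fat absorption and chylomicron list, 12 were higher in jejunum, none was higher in ileum, and the median log2 fold change was 1.11. Apoa4, an apolipoprotein of chylomicrons, stood at 14010.5, 8697 and 9685 in the jejunum libraries and 20.6, 50.4 and 107 in the ileum libraries (log2 fold change 7.51 ± 0.63, adjusted p = 2.09e-09). Fabp1, which carries fatty acids inside the cell, was read at 427, 425 and 702.6 in the jejunum libraries and 4.04, 2.70 and 2.06 in the ileum libraries (log2 fold change 7.45 ± 0.48, adjusted p = 6.42e-12). Cd36, a fatty acid receptor of the cell surface, reached 55.4, 17.7 and 55.8 in the jejunum libraries and 0.485, 0.0601 and 0.441 in the ileum libraries (log2 fold change 6.998 ± 0.73, adjusted p = 8.95e-08). The jejunum libraries lay above the ileum libraries in each of these genes, although jejunum library 2 held less Cd36 than the other jejunum libraries. Apoc3, another apolipoprotein, gave 285, 111 and 224 in the jejunum libraries and 4.58, 5.35 and 16.7 in the ileum libraries (log2 fold change 4.55 ± 0.51, adjusted p = 2.92e-07). Creb3l3, a membrane-bound transcription factor that drives apolipoprotein genes, gave 500.1, 543 and 356 in the jejunum libraries and 6.08, 50.8 and 86.7 in the ileum libraries (log2 fold change 3.29 ± 0.61, adjusted p = 0.000601). Ileum library 1 was the lowest for both genes. Mttp, which loads lipid onto apolipoprotein B, was at 1057, 1241 and 1336 in the jejunum libraries and 281, 393 and 472 in the ileum libraries (log2 fold change 1.67 ± 0.36, adjusted p = 0.00313). Abca1, a cholesterol exporter, was at 45.6, 88.6 and 52.9 in the jejunum libraries and 7.54, 15.02 and 7.13 in the ileum libraries (log2 fold change 2.65 ± 0.39, adjusted p = 2.31e-05). Dgat1 (1.12), Dgat2 (1.49) and Abcg5 (0.999), which make triglyceride or return sterols to the lumen, passed with smaller log2 fold changes. Calls lost with a library left out were those of Dgat1 without jejunum library 2 or ileum library 1 or 2 (log2 fold change 1.03 to 1.09, adjusted p 0.0768 to 0.112), Dgat2 without jejunum library 1 or 2 or ileum library 1 or 3 (log2 fold change 1.28 to 1.51, adjusted p 0.0649 to 0.139) and Abcg5 without jejunum library 1 or 2 or ileum library 1, 2 or 3 (log2 fold change 0.81 to 1.08, adjusted p 0.0704 to 0.197). The list's count was 8 without ileum library 1 and 8 without jejunum library 2, and 7 with library size alone.

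Several central genes of the same pathway did not pass with edgeR. Apob, the structural protein of the chylomicron, stood at 7003, 4920.2 and 5989 in the jejunum libraries and 1124, 2858 and 3894 in the ileum libraries (log2 fold change 1.19 ± 0.39, adjusted p = 0.0766). Apoa1 was at 8025, 7686 and 7439 in the jejunum libraries and 1633, 4086 and 4987 in the ileum libraries (log2 fold change 1.11 ± 0.43, adjusted p = 0.152). For Fabp2, the other main fatty acid carrier of enterocytes, the levels were 2504, 2748 and 4471 in the jejunum libraries and 485, 1155 and 2055 in the ileum libraries (log2 fold change 1.40 ± 0.45, adjusted p = 0.0655). Every jejunum library lay above every ileum library in these 3 genes as well, with ileum library 1 the lowest throughout. Leaving out ileum library 3 carried Apob and Fabp2 past the threshold (adjusted p 0.0317 and 0.0145). Both also passed with DESeq2 (adjusted p 0.0227 and 0.0179), and all 3 genes passed without a filter and with the i5 index as a covariate (adjusted p 0.0336, 0.00219 and, for Apoa1, 0.0485). Acot12, which hydrolyses acetyl-CoA, was among the largest differences, at 83.8, 92.6 and 57.5 in the jejunum libraries and 0.108, 0.841 and 1.62 in the ileum libraries (log2 fold change 6.56 ± 0.62, adjusted p = 1.14e-08).

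**Figure D2:**
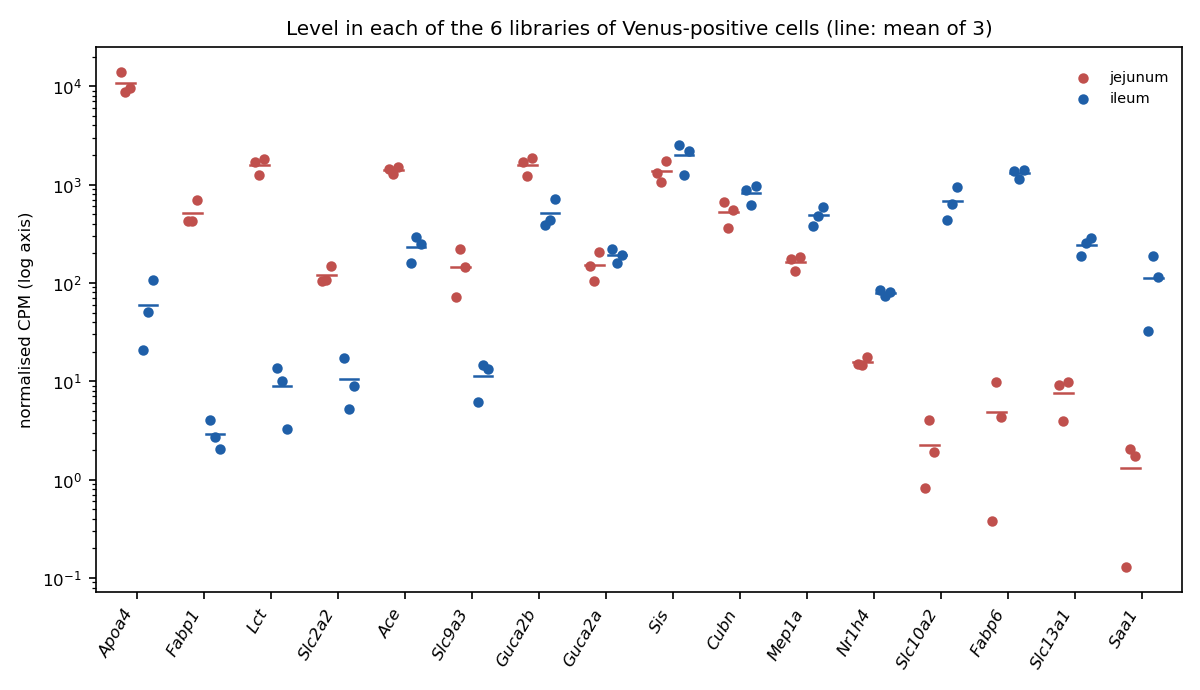
Level of 16 genes in each library of Venus-positive cells (y axis, normalised CPM on a log axis), with red points for the 3 jejunum libraries, blue points for the 3 ileum libraries and a line at each group mean. Apoa4, Fabp1 and Lct on the left and Slc10a2, Fabp6 and Slc13a1 on the right are separated by more than an order of magnitude, while Guca2a, Sis and Cubn overlap between regions.

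Of 18 tested genes of sugar digestion, uptake and fructose handling, 7 were higher in jejunum and none in ileum (median log2 fold change 0.94). Lct, the brush-border lactase, was at 1703, 1256 and 1812 in the jejunum libraries and 13.6, 9.97 and 3.24 in the ileum libraries (log2 fold change 7.47 ± 0.55, adjusted p = 1.26e-10). Slc2a2, the glucose transporter of the basolateral membrane, was at 104, 107 and 149 in the jejunum libraries and 17.3, 5.17 and 8.90 in the ileum libraries (log2 fold change 3.51 ± 0.41, adjusted p = 4.89e-07). Slc5a4b, of the sodium-glucose transporter family, was at 53.0, 30.9 and 60.2 in the jejunum libraries and 5.71, 1.92 and 9.86 in the ileum libraries (log2 fold change 3.05 ± 0.59, adjusted p = 0.00106). In none of them did the regions overlap. Pck1 of gluconeogenesis (2.74), Slc2a7 (3.07), the trehalase gene Treh (1.54) and the fructokinase gene Khk (1.03) were the other calls, on the log2 scale. Sucrase-isomaltase, encoded by Sis, gave 1322, 1068 and 1741 in the jejunum libraries and 2511, 1236 and 2183 in the ileum libraries (log2 fold change -0.52 ± 0.31, adjusted p = 0.414). The sodium-glucose transporter Slc5a1 gave 872, 960.1 and 1352 in the jejunum libraries and 636, 703.7 and 878 in the ileum libraries (log2 fold change 0.52 ± 0.32, adjusted p = 0.435). Both overlapped between regions. Slc2a5, the fructose transporter, did not pass (log2 fold change 1.03 ± 0.52, adjusted p = 0.303), although its jejunum libraries at 28.1, 20.1 and 38.7 lay above the ileum libraries at 14.4, 12.1 and 15.96. Calls lost with a library left out were Slc2a7 without jejunum library 1 or ileum library 1, 2 or 3 (log2 fold change 2.90 to 3.19, adjusted p 0.0518 to 0.0698), Treh without jejunum library 1 or 2 or ileum library 1 or 2 (log2 fold change 1.26 to 1.62, adjusted p 0.0562 to 0.187) and Khk without jejunum library 2 or 3 or ileum library 1, 2 or 3 (log2 fold change 0.82 to 1.15, adjusted p 0.0581 to 0.172). The list's count was 4 without ileum library 1 and 4 without ileum library 2. With at least 10 counts required in each compared library, 3 of 11 tested genes were called and the median was 0.28.

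RefSeq promoters of GRCm38.p6, which span 250 bases before to 50 bases after the start, were matched by symbol for 32 of the 40 genes named by rank. Those of Lct and Fabp6, from that ranking, are printed for their large regional differences, and that of Enpp7, which the ranking does not name, was chosen after its values were seen. Capitals mark AGATAA, the core bound by GATA factors, and TTTATG, bound by CDX factors, searched on both strands, so that the reverse complement is capitalised as TTATCT or CATAAA. The promoter of Lct (chr1:128328269-128328568, minus strand) held AGATAA at 101 bases before the start on the other strand and at 90 bases on the printed strand, and TTTATG at 31 bases on the other strand. The promoter of Enpp7 (chr11:118987931-118988230, plus strand), described with the lipases, held AGATAA 110 bases before the start. In the promoter of Fabp6 (chr11:43601513-43601812, minus strand), an ileum-high gene, TTTATG lay 111 bases before the start on the other strand, and the sterol element core TCACCCCAC, also capitalised there as its reverse complement, lay 69 bases before it.
Lct: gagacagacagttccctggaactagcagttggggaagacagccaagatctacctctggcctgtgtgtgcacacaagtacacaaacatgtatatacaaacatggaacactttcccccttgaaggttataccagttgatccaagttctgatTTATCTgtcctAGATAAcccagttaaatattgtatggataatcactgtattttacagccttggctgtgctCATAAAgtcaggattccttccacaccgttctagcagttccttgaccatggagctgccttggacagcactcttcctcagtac
Enpp7: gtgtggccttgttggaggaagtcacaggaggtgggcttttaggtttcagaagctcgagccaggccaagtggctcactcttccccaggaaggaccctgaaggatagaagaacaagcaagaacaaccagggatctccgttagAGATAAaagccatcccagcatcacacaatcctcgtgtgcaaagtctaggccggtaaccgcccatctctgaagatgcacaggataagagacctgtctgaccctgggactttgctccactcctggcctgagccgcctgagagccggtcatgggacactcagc
Fabp6: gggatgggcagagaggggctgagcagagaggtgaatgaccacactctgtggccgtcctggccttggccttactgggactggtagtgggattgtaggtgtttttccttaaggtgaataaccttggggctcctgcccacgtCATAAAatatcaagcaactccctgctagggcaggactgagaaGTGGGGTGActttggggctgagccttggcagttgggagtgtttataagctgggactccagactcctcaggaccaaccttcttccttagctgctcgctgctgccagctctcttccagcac
AGATAA occurred in 9.06% of 342 promoters of jejunum-high genes, in 8.08% of 421 promoters of ileum-high genes, in 6.88% of 13238 promoters of the genes tested and in 11.2% of all 32851 promoters. TTTATG occurred in 8.48%, 10.2%, 6.77% and 11.9% of the same sets. These shares describe the letters in the window and carry no test.

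GATA factors and other regional regulators were read next. Gata4 was at 50.9, 44.2 and 36.2 in the jejunum libraries and 2.58, 2.82 and 1.84 in the ileum libraries (log2 fold change 4.17 ± 0.36, adjusted p = 3.56e-09), without overlap. Onecut2, a homeodomain factor of the proximal intestine, was at 16.2, 7.98 and 8.90 in the jejunum libraries and 0.485, 0.421 and 0.147 in the ileum libraries (log2 fold change 4.89 ± 0.59, adjusted p = 1.18e-06). Gata6, a relative of Gata4 whose product binds the same motif, overlapped between regions at 36.1, 28.4 and 24.4 in the jejunum libraries and 13.8, 34.2 and 19.9 in the ileum libraries (log2 fold change 0.39 ± 0.30, adjusted p = 0.57). The factors Klf5 (log2 fold change -0.95 ± 0.25, adjusted p = 0.0221), Spdef (log2 fold change -1.61 ± 0.45, adjusted p = 0.0307) and Creb3l1 (log2 fold change -1.77 ± 0.29, adjusted p = 0.000154) were among the 4 of 40 tested regulators that were higher in ileum, and 2 were higher in jejunum. Over all genes tested, 3.00% were higher in ileum and 2.15% in jejunum. Spdef and Creb3l1, known as factors of secretory cells, are also counted in the goblet cell list, whose summed level given above was higher in ileum libraries 1 and 3 than in any jejunum library. Their part in these calls was not tested. The general factors Hnf4a (410.1, 495 and 316 in jejunum and 277, 583 and 508 in ileum) and Cdx2 (28.9, 59.1 and 29.2 in jejunum and 46.9, 71.1 and 49.7 in ileum) overlapped between regions and did not pass (adjusted p = 0.857 and adjusted p = 0.394). Cdx1 was at 15.2, 23.5 and 21.7 in jejunum and 34.7, 32.7 and 31.6 in ileum (log2 fold change -0.71 ± 0.26, adjusted p = 0.124), without overlap but short of the threshold. The ileum-high count was 1 without jejunum library 1, 1 without ileum library 1, 2 without jejunum library 2, 2 without ileum library 2, 8 with library size alone and 7 without a filter. The call was lost for Klf5 without jejunum library 1 or 2 or ileum library 1 or 2 (log2 fold change -0.93 to -0.87, adjusted p 0.0676 to 0.11) and Spdef without jejunum library 1 or 2 or ileum library 1 or 2 (log2 fold change -1.68 to -1.11, adjusted p 0.0531 to 0.257).

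Hox genes set the position of a cell along the body axis, and every call among them was of a Hoxb gene. Of 20 tested Hox genes, 6 were higher in ileum and none in jejunum. Of all 39 Hox genes, 30 had no count in any jejunum library and 20 had none in any ileum library. A gene without counts in jejunum can be called in the ileum direction alone, so the absence of jejunum-high calls was largely set beforehand. With the compared libraries fitted alone, 7 Hox genes were tested and 6 were higher in ileum. Hoxb6 had no count in any jejunum library and stood at 6.57, 4.81 and 8.83 in ileum, at least 30.8-fold higher (adjusted p = 7.46e-07). Hoxb7 had no count in jejunum either and stood at 2.69, 4.27 and 5.44 in ileum, at least 18.9-fold higher (adjusted p = 2.77e-06). The same held for Hoxb5, at 3.23, 3.36 and 1.47 in ileum, at least 12.3-fold higher (adjusted p = 2.26e-05). These bounds set the jejunum at 3 counts in the library with the highest floor. Hoxb9 was read at 0, 0 and 0.0729 in jejunum and 6.73, 4.63 and 6.25 in ileum (adjusted p = 1.36e-07), Hoxb8 at 0, 0.0558 and 0.0729 in jejunum and 2.10, 0.721 and 0.736 in ileum (adjusted p = 0.003), and Hoxb3 at 0.0639, 0.0558 and 0.146 in jejunum and 1.99, 2.88 and 2.35 in ileum (log2 fold change -4.68 ± 0.94, adjusted p = 0.0015). Jejunum libraries held at most a few reads of any of the 3. In the other 14 tested Hox genes most libraries were at or near 0.

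Of 10 tested genes of bile acid uptake and of the bile acid receptor FXR, 5 were higher in ileum and 2 in jejunum (median log2 fold change -2.25). Slc10a2, the sodium-dependent bile acid transporter of the apical membrane, was at 0.831, 4.07 and 1.90 in the jejunum libraries and 436, 636 and 953 in the ileum libraries (log2 fold change -8.20 ± 0.64, adjusted p = 4.76e-10). Fabp6, which carries bile acids through the cell and whose promoter is printed above, was at 0.383, 9.93 and 4.30 in the jejunum libraries and 1373, 1141 and 1391 in the ileum libraries (log2 fold change -8.05 ± 0.77, adjusted p = 1.32e-08). Jejunum library 1 was the lowest for both genes, and the regions did not overlap. Nr1h4, the gene of FXR itself, was at 15.02, 14.6 and 17.8 in the jejunum libraries and 84.1, 72.9 and 80.4 in the ileum libraries (log2 fold change -2.33 ± 0.29, adjusted p = 1.71e-06). Slc51a, a subunit of the basolateral bile acid exporter, was at 36.6, 53.5 and 65.4 in the jejunum libraries and 219.8, 252 and 306 in the ileum libraries (log2 fold change -2.32 ± 0.37, adjusted p = 7.3e-05). Nr5a2, a nuclear receptor that acts with FXR, was at 3.20, 3.18 and 4.67 in the jejunum libraries and 22.1, 11.2 and 16.3 in the ileum libraries (log2 fold change -2.17 ± 0.32, adjusted p = 2.5e-05). Slc51b, the partner subunit, was at 58.4, 156 and 105 in the jejunum libraries and 156, 356 and 331 in the ileum libraries (log2 fold change -1.40 ± 0.44, adjusted p = 0.063). Fgf15, the hormone released under FXR, was at 0.895, 2.12 and 0.802 in the jejunum libraries and 6.08, 23.0 and 2.43 in the ileum libraries (log2 fold change -3.03 ± 0.92, adjusted p = 0.0574). In Slc51b the lowest ileum library was level with the highest jejunum library, in Fgf15 the regions were separate, and neither gene passed. A call was gained for Slc51b without jejunum library 2 or ileum library 1 (log2 fold change -1.76 to -1.69, adjusted p 0.032 to 0.0481) and for Fgf15 without ileum library 3 (log2 fold change -3.50, adjusted p = 0.0316). Both also passed with DESeq2 (adjusted p 0.0306 and 0.0219), without a filter and with library size alone, and Fgf15 with the compared libraries alone. Other fits went the opposite way. Without ileum library 2 the log2 fold change of Fgf15 was -1.73 (adjusted p = 0.542). Without jejunum library 1 that of Slc51b was -1.10 (adjusted p = 0.305). Abcc2, an apical conjugate exporter, was higher in jejunum at 275, 162 and 166 in the jejunum libraries and 91.1, 46.9 and 64.9 in the ileum libraries (log2 fold change 1.57 ± 0.32, adjusted p = 0.00187), as was Cyp27a1, a sterol hydroxylase (log2 fold change 1.97 ± 0.45, adjusted p = 0.00571).

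Vitamin B12 uptake is the other textbook task of the ileum. None of 10 tested genes of vitamin B12 and protein endocytosis passed with edgeR. At an unadjusted p under 0.05 there were 1, and DESeq2 called 1. Cubn, the B12-intrinsic factor receptor cubilin, was at 662, 361 and 547 in the jejunum libraries and 878, 627 and 969 in the ileum libraries (log2 fold change -0.66 ± 0.41, adjusted p = 0.458). Its partner amnionless, Amn, was at 66.3, 94.7 and 94.9 in the jejunum libraries and 32.1, 50.5 and 63.5 in the ileum libraries (log2 fold change 0.81 ± 0.42, adjusted p = 0.336). Cubn overlapped between regions, and Amn was higher in every jejunum library.

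Cholesterol synthesis and uptake formed the most uniform ileum-high group, as 19 of 24 tested genes were higher in ileum and none in jejunum (median log2 fold change -2.06). Sqle, which makes squalene epoxide, was at 3.96, 5.47 and 14.7 in the jejunum libraries and 54.6, 82.3 and 101 in the ileum libraries (log2 fold change -3.31 ± 0.41, adjusted p = 1.75e-06). Fdft1, the squalene synthase, was at 4.92, 5.02 and 10.1 in the jejunum libraries and 46.7, 62.7 and 75.6 in the ileum libraries (log2 fold change -3.21 ± 0.38, adjusted p = 7.78e-07). Every ileum library exceeded every jejunum library in both, and jejunum library 3 was the highest of the jejunum libraries. Srebf2, which encodes the transcription factor of the pathway, was at 16.9, 17.1 and 20.7 in the jejunum libraries and 78.2, 93.6 and 92.9 in the ileum libraries (log2 fold change -2.27 ± 0.26, adjusted p = 3.57e-07). Hmgcs1, the HMG-CoA synthase, was at 33.9, 19.97 and 72.3 in the jejunum libraries and 182, 205 and 344 in the ileum libraries (log2 fold change -2.54 ± 0.49, adjusted p = 0.00114). Again no library overlapped. The count of 19 was 10 without jejunum library 1, 8 without jejunum library 2, 12 without ileum library 2, 11 without ileum library 3. The median of the list lay between -2.28 and -1.77 with any 1 of the 6 libraries left out, and no member was called higher in jejunum in any of these fits. In Venus-negative cells none of the 24 genes passed and the median was -0.05. Sqle was at 11.99, 20.4 and 28.0 in jejunum and 14.2, 30.8 and 29.5 in ileum there, and the difference between sorts passed for 4 of the 24 genes, among them Sqle (-3.01 ± 0.55, adjusted p = 0.00778), Fdft1 (-2.87 ± 0.51, adjusted p = 0.00591) and Srebf2 (-1.61 ± 0.35, adjusted p = 0.0337). The call of Srebf2 held in 2 of 12 fits with a library left out, and in 4 of 8 other settings. Npc1l1, which takes up luminal cholesterol and stood outside that list, did not pass, at 758, 604 and 675 in the jejunum libraries and 192, 506 and 552 in the ileum libraries (log2 fold change 0.70 ± 0.33, adjusted p = 0.273).

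**Figure D3:**
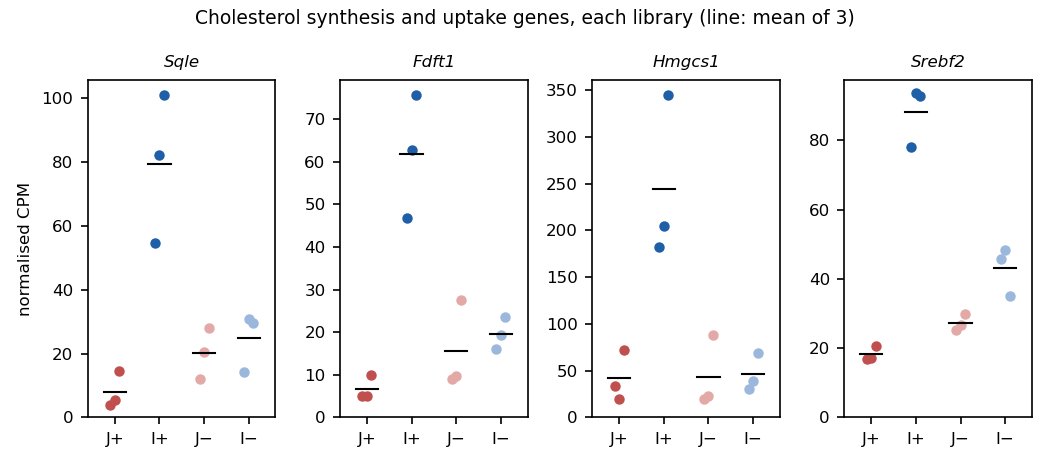
Level of 4 genes of cholesterol synthesis and uptake (y axis, normalised CPM from 0) in each library of Venus-positive (J+ jejunum, I+ ileum) and Venus-negative cells (J− jejunum, I− ileum), with a line at the mean of 3. The I+ points lie above the J+ points in every panel, while the J− and I− points overlap in every panel but that of Srebf2.

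The promoter of Hmgcs1 (chr13:119690101-119690400, plus strand, GRCm38.p6 from RefSeq) is printed because it holds the sterol element core TCACCCCAC, in capitals, 137 bases before the start.
Hmgcs1: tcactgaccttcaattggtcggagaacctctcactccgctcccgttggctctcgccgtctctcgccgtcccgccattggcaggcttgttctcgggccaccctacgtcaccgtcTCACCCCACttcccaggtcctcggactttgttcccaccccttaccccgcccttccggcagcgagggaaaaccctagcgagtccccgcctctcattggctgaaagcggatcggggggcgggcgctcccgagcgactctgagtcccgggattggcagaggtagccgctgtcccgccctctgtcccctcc
The core, searched on both strands, occurred in 0.551% of all promoters of this length, in 0.582% of those of the genes tested, in 1.75% of those of jejunum-high genes and in 0.950% of those of ileum-high genes. Among the 16 list members with a promoter entry, it occurred in Hmgcs1 alone.

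Peptide and amino acid uptake was split between the regions. Of 15 tested brush-border peptidases, 3 were higher in jejunum and 1 in ileum. Ace, a peptidyl-dipeptidase, was at 1448, 1286 and 1493 in the jejunum libraries and 158, 292 and 246 in the ileum libraries (log2 fold change 2.60 ± 0.36, adjusted p = 1.12e-05). Mme, neprilysin, was at 426, 258 and 503.7 in the jejunum libraries and 81.4, 136 and 192 in the ileum libraries (log2 fold change 1.54 ± 0.37, adjusted p = 0.0105). Mep1a, the alpha subunit of meprin, ran the other way, at 174, 131 and 184 in the jejunum libraries and 382, 479 and 596 in the ileum libraries (log2 fold change -1.57 ± 0.30, adjusted p = 0.00104). None of these overlapped. Anpep, aminopeptidase N, overlapped at 2125, 2554 and 3038 in the jejunum libraries and 2707, 5733 and 5290.2 in the ileum libraries (log2 fold change -0.83 ± 0.46, adjusted p = 0.368). Of 19 tested amino acid and peptide transporters, 6 were higher in jejunum and 4 in ileum. Slc36a1, a proton-coupled amino acid transporter, was at 44.9, 93.9 and 64.0 in the jejunum libraries and 8.72, 5.41 and 6.91 in the ileum libraries (log2 fold change 3.27 ± 0.36, adjusted p = 2.64e-07). Slc7a8, a basolateral exchanger of neutral amino acids, was at 93.7, 75.1 and 102 in the jejunum libraries and 15.3, 10.996 and 10.8 in the ileum libraries (log2 fold change 2.86 ± 0.37, adjusted p = 3.66e-06). Slc16a10, an exporter of aromatic amino acids, was at 105, 74.9 and 123 in the jejunum libraries and 24.4, 26.3 and 29.6 in the ileum libraries (log2 fold change 1.91 ± 0.43, adjusted p = 0.00463). Slc7a15 (1.93), Slc43a2 (1.35) and Slc3a2 (1.07) completed the jejunum-high group on the log2 scale.

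In ileum, Slc6a14, a concentrating transporter of neutral and cationic amino acids, reached 11.2, 48.9 and 19.3 against 0.256, 0.223 and 0.0729 in jejunum (log2 fold change -7.07 ± 0.62, adjusted p = 3.56e-09). Slc1a1, the glutamate transporter, was at 1.02, 9.71 and 10.9 in the jejunum libraries and 64.8, 66.4 and 67.2 in the ileum libraries (log2 fold change -3.20 ± 0.48, adjusted p = 3.19e-05). Jejunum library 1 was far below the other jejunum libraries for Slc1a1. Slc6a20a, a transporter of imino acids, was at 34.3, 18.6 and 34.1 in the jejunum libraries and 117, 54.4 and 67.1 in the ileum libraries (log2 fold change -1.46 ± 0.38, adjusted p = 0.0203). Slc7a5, an exchanger of large neutral amino acids, was near or below the floor in jejunum libraries 1 and 2, at 0, 0.223 and 0.729 in the jejunum libraries and 1.56, 1.92 and 1.62 in the ileum libraries (log2 fold change -2.44 ± 0.68, adjusted p = 0.0301). The main uptake routes did not pass with edgeR. The peptide transporter Slc15a1 was at 665, 391 and 641 in the jejunum libraries and 177, 249.7 and 325 in the ileum libraries (log2 fold change 1.18 ± 0.38, adjusted p = 0.0675), and it passed with DESeq2 (adjusted p = 0.0288), without a filter and with the i5 index as a covariate. The neutral amino acid transporter Slc6a19 was at 357, 317 and 421 in the jejunum libraries and 78.2, 269.9 and 338 in the ileum libraries (log2 fold change 0.68 ± 0.45, adjusted p = 0.487). Calls that were lost on leaving out a library concerned Mme without ileum library 1 (log2 fold change 1.27, adjusted p = 0.0899), Slc43a2 without jejunum library 2 or 3 or ileum library 1, 2 or 3 (log2 fold change 1.22 to 1.54, adjusted p 0.0509 to 0.138), Slc3a2 without jejunum library 1, 2 or 3 or ileum library 1 or 2 (log2 fold change 0.91 to 1.19, adjusted p 0.0597 to 0.209), Slc6a20a without jejunum library 2 or ileum library 1 (log2 fold change -1.20 to -1.07, adjusted p 0.149 to 0.187) and Slc7a5 without jejunum library 1 or 2 or ileum library 1 or 2 (log2 fold change -2.50 to -1.86, adjusted p 0.0553 to 0.165). The jejunum-high count of the peptidases was 1 without ileum library 1, and the ileum-high count of the transporters was 2 without ileum library 1, 2 without jejunum library 2.

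The guanylin pathway itself was mixed. Guca2a, the gene that drives the reporter, was at 150.2, 104 and 206 in the jejunum libraries and 221, 161 and 191 in the ileum libraries (log2 fold change -0.31 ± 0.32, adjusted p = 0.711), and the groups overlapped. Guca2b, uroguanylin, was at 1687, 1232 and 1878 in the jejunum libraries and 392, 437 and 715 in the ileum libraries (log2 fold change 1.64 ± 0.31, adjusted p = 0.000729), and every jejunum library lay above every ileum library. Gucy2c, the receptor, was at 137, 156 and 176 in the jejunum libraries and 106, 119 and 138 in the ileum libraries (log2 fold change 0.37 ± 0.25, adjusted p = 0.514). The exchanger inhibited by the pathway, Slc9a3 (NHE3), was at 71.1, 222 and 147 in the jejunum libraries and 6.19, 14.8 and 13.3 in the ileum libraries (log2 fold change 3.68 ± 0.61, adjusted p = 0.000132). The chloride channel Cftr ran the other way, at 12.2, 10.2 and 24.1 in the jejunum libraries and 68.7, 15.6 and 36.4 in the ileum libraries (log2 fold change -1.38 ± 0.37, adjusted p = 0.0241), with ileum library 1 the highest and ileum library 2 within the jejunum range. Its call was lost for Cftr without jejunum library 1 or 2 or ileum library 1 (log2 fold change -1.24 to -0.75, adjusted p 0.143 to 0.342). Of 11 tested genes of the pathway, 2 were higher in jejunum and 1 in ileum. In Venus-negative cells, Guca2b also differed (log2 fold change 2.01 ± 0.31, adjusted p = 0.000111), at 99.8, 123 and 149 in jejunum and 23.5, 26.4 and 42.0 in ileum. Guca2a there was at 24.3, 21.5 and 27.7 in jejunum and 23.5, 22.5 and 32.6 in ileum.

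Ion, vitamin and water transport differed by gene. Of 39 tested genes of ion and water transport, 3 were higher in jejunum and 8 in ileum. Slc23a1, the sodium-dependent vitamin C transporter, was at 35.3, 31.5 and 32.3 in the jejunum libraries and 0.323, 0 and 0 in the ileum libraries (log2 fold change 8.02 ± 0.98, adjusted p = 1.94e-06), with no count in ileum library 2 or 3. Slc13a1, the sodium sulphate transporter, was at 9.20, 3.90 and 9.77 in the jejunum libraries and 189, 253 and 289 in the ileum libraries (log2 fold change -5.00 ± 0.42, adjusted p = 1.76e-09). Car12, a carbonic anhydrase of the basolateral membrane, was at 0.575, 1.004 and 0.729 in the jejunum libraries and 17.4, 11.4 and 21.1 in the ileum libraries (log2 fold change -4.41 ± 0.49, adjusted p = 2.57e-07). All were free of overlap. Hsd11b2, which protects the mineralocorticoid receptor from glucocorticoids, was at 0.0639, 0 and 0.438 in the jejunum libraries and 5.01, 4.39 and 2.65 in the ileum libraries (log2 fold change -4.65 ± 0.89, adjusted p = 0.000833). Car4, a membrane-bound carbonic anhydrase, was at 3.13, 7.03 and 18.1 in the jejunum libraries and 18.5, 60.6 and 50.2 in the ileum libraries (log2 fold change -2.20 ± 0.53, adjusted p = 0.00951). Slc5a8, a monocarboxylate transporter, was at 31.3, 71.2 and 105 in the jejunum libraries and 145, 192 and 276 in the ileum libraries (log2 fold change -1.56 ± 0.43, adjusted p = 0.0292). In Car4, the highest jejunum library came close to the lowest ileum library. Car1, a cytosolic carbonic anhydrase, was called on 1 library, with 0.767, 1.28 and 2.19 in the jejunum libraries and 56.0, 2.34 and 0.515 in the ileum libraries (log2 fold change -3.81 ± 1.06, adjusted p = 0.0292). Calls lost on leaving out a library concerned Car4 without jejunum library 1 or 2 or ileum library 2 (log2 fold change -1.996 to -1.78, adjusted p 0.053 to 0.0811), Slc5a8 without jejunum library 1 or 2 or ileum library 2 or 3 (log2 fold change -1.61 to -1.21, adjusted p 0.0522 to 0.203) and Car1 without jejunum library 1 or 2 or ileum library 1 (log2 fold change -3.69 to -0.06, adjusted p 0.115 to 1). The ileum-high count of the list was 4 without jejunum library 1, 3 without jejunum library 2.

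Among tight junction genes, Cldn2, a pore-forming claudin for cations and water, was at 0.383, 0.502 and 5.18 in the jejunum libraries and 48.3, 29.0 and 41.7 in the ileum libraries (log2 fold change -4.33 ± 0.57, adjusted p = 4.2e-06). Cldn15, the other cation pore of the villus, was at 96.1, 75.7 and 120.3 in the jejunum libraries and 48.2, 38.6 and 49.7 in the ileum libraries (log2 fold change 1.10 ± 0.26, adjusted p = 0.00772). Cldn2 was thus higher in ileum and Cldn15 in jejunum, and these were the only calls among 8 tested claudins. Of 6 tested aquaporins, 2 were higher in jejunum and none in ileum. The water channel Aqp1 was at 183, 53.0 and 109.8 in the jejunum libraries and 20.9, 27.0 and 35.6 in the ileum libraries (log2 fold change 2.05 ± 0.34, adjusted p = 0.000165). The glycerol channel Aqp3 was at 14.3, 8.76 and 20.9 in the jejunum libraries and 0.646, 0.901 and 2.87 in the ileum libraries (log2 fold change 3.32 ± 0.96, adjusted p = 0.0373). Calls lost on leaving out a library concerned Cldn15 without ileum library 2 (log2 fold change 0.99, adjusted p = 0.0662) and Aqp3 without jejunum library 1 or 3 or ileum library 1 or 2 (log2 fold change 2.96 to 3.34, adjusted p 0.0895 to 0.161), and that of Aqp3 was also lost with DESeq2 (adjusted p = 0.068).

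None of 19 tested genes of iron, calcium, zinc and copper absorption was higher in jejunum, and 4 were higher in ileum. Slc40a1, the iron exporter ferroportin, was at 0.575, 2.84 and 0.146 in the jejunum libraries and 20.2, 26.0 and 16.6 in the ileum libraries (log2 fold change -4.07 ± 0.66, adjusted p = 0.000104). Trpm6, an apical magnesium channel, was at 1.85, 3.40 and 4.38 in the jejunum libraries and 54.6, 50.9 and 41.7 in the ileum libraries (log2 fold change -3.93 ± 0.49, adjusted p = 1.97e-06). Atp2b1, the calcium pump of the basolateral membrane, was at 54.5, 59.3 and 52.4 in the jejunum libraries and 205, 162 and 200.4 in the ileum libraries (log2 fold change -1.77 ± 0.26, adjusted p = 3.23e-05). The regions did not overlap in any of these. S100g, the calcium carrier calbindin-D9k, was low throughout, at 0.192, 0 and 0.146 in the jejunum libraries and 4.95, 2.94 and 0.588 in the ileum libraries (log2 fold change -4.64 ± 0.84, adjusted p = 0.000441).

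Xenobiotic metabolism was weighted to jejunum, with 15 of 51 tested genes higher there and 5 higher in ileum (median log2 fold change 0.73). Cyp2b10, a cytochrome P450 induced by the receptor CAR, was at 46.1, 34.1 and 58.2 in the jejunum libraries and 0.269, 1.02 and 0.515 in the ileum libraries (log2 fold change 6.25 ± 0.55, adjusted p = 6.45e-09). Nr1i3, the gene of CAR, was at 10.5, 18.6 and 14.2 in the jejunum libraries and 0.485, 0.541 and 1.84 in the ileum libraries (log2 fold change 3.95 ± 0.60, adjusted p = 4.51e-05). Cyp3a11, the main drug-oxidising P450, was at 409, 180.3 and 313 in the jejunum libraries and 18.2, 31.0 and 29.1 in the ileum libraries (log2 fold change 3.53 ± 0.38, adjusted p = 1.62e-07). All were free of overlap. Adh6a, an alcohol dehydrogenase, was at 86.0, 45.6 and 53.7 in the jejunum libraries and 2.26, 1.02 and 2.72 in the ileum libraries (log2 fold change 4.95 ± 0.45, adjusted p = 6.45e-09). Ugt2a3, a glucuronosyltransferase, was at 23.1, 7.64 and 29.2 in the jejunum libraries and 0.915, 0.180 and 0.0736 in the ileum libraries (log2 fold change 5.56 ± 0.71, adjusted p = 4.02e-06). On the ileal side stood the drug exporters Abcb1a, at 109.8, 67.0 and 76.0 in the jejunum libraries and 289.6, 252 and 278 in the ileum libraries (log2 fold change -1.70 ± 0.34, adjusted p = 0.00161), and Abcg2, at 66.3, 92.9 and 98.7 in the jejunum libraries and 147, 257 and 354 in the ileum libraries (log2 fold change -1.56 ± 0.37, adjusted p = 0.00891). Aldh1a1, a retinaldehyde dehydrogenase, was at 88.3, 86.1 and 111 in the jejunum libraries and 179.9, 199 and 265 in the ileum libraries (log2 fold change -1.17 ± 0.29, adjusted p = 0.0105). The call was lost for Abcg2 without jejunum library 1 or ileum library 3 (log2 fold change -1.40 to -1.23, adjusted p 0.0699 to 0.0749) and Aldh1a1 without jejunum library 1 or 2 or ileum library 3 (log2 fold change -1.12 to -0.99, adjusted p 0.0692 to 0.0769), and the ileum-high count of the list was 1 without jejunum library 1, 2 without jejunum library 2, 3 without ileum library 3. Rbp2, the retinol carrier of enterocytes, was higher in jejunum at 501.7, 625 and 532 in the jejunum libraries and 23.1, 82.1 and 91.2 in the ileum libraries (log2 fold change 3.08 ± 0.44, adjusted p = 1.73e-05), as was the retinol dehydrogenase Rdh7 (log2 fold change 2.40 ± 0.51, adjusted p = 0.00308), among 10 tested retinoid genes of which 1 other was higher in ileum.

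Of 22 tested genes of purine breakdown and nucleosides, 7 were higher in jejunum and none in ileum. Enpp3, an ectoenzyme that cleaves nucleotides, was at 409.9, 179 and 331 in the jejunum libraries and 5.44, 2.04 and 3.82 in the ileum libraries (log2 fold change 6.34 ± 0.40, adjusted p = 6.42e-12). Slc28a1, a sodium-dependent pyrimidine nucleoside transporter, was at 23.1, 13.9 and 29.3 in the jejunum libraries and 0.538, 0 and 0.588 in the ileum libraries (log2 fold change 5.86 ± 0.77, adjusted p = 4e-06). Nt5e, which makes adenosine from AMP at the cell surface, was at 272, 149.9 and 108 in the jejunum libraries and 0.377, 14.4 and 39.0 in the ileum libraries (log2 fold change 3.31 ± 0.72, adjusted p = 0.0038), with ileum library 1 far below the other ileum libraries. Its call was lost with the compared libraries fitted alone (adjusted p = 0.0659). The jejunum-high count of the list was 4 without jejunum library 1, 4 without ileum library 1. Among 21 tested phospholipid and lipase genes, 4 were higher in jejunum and 1 in ileum. Enpp7, the alkaline sphingomyelinase, was at 561, 719.7 and 713 in the jejunum libraries and 32.3, 55.2 and 31.8 in the ileum libraries (log2 fold change 4.06 ± 0.49, adjusted p = 1.18e-06). Asah2, the neutral ceramidase that acts after it, was at 701.5, 611 and 707.2 in the jejunum libraries and 26.6, 56.7 and 29.3 in the ileum libraries (log2 fold change 4.16 ± 0.37, adjusted p = 3.56e-09). Plb1, the brush-border phospholipase B, was at 318, 601 and 458 in the jejunum libraries and 84.6, 90.9 and 17.4 in the ileum libraries (log2 fold change 2.83 ± 0.52, adjusted p = 0.000519). The regions did not overlap in these genes. Lpcat4, a lysophospholipid acyltransferase, was the ileum-high one, at 0.575, 1.73 and 1.02 in the jejunum libraries and 19.1, 44.3 and 37.7 in the ileum libraries (log2 fold change -4.90 ± 0.67, adjusted p = 7.92e-06).

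Other jejunum-high genes of large size, named by rank, included Efr3b, a membrane anchor of phosphatidylinositol 4-kinase, at 31.1, 52.3 and 34.8 in jejunum and 0, 0.361 and 0 in ileum (log2 fold change 8.23 ± 0.91, adjusted p = 2.29e-07). The endonuclease Dnase1 was at 92.0, 43.0 and 122 in jejunum and 1.35, 1.44 and 1.69 in ileum (log2 fold change 5.84 ± 0.60, adjusted p = 5.79e-08). The sialic acid lyase Npl was at 33.2, 44.6 and 42.5 in jejunum and 0.861, 2.04 and 0.221 in ileum (log2 fold change 5.24 ± 0.62, adjusted p = 8.42e-07), and all 3 were free of overlap. The mannose-binding lectin Mbl2 was at 7.61, 4.29 and 12.9 in jejunum and 0.0538, 0 and 0.441 in ileum (log2 fold change 5.66 ± 1.37, adjusted p = 0.0118). The call of Mbl2 was lost (Mbl2 without ileum library 1 or 2 (log2 fold change 5.08 to 5.23, adjusted p 0.0582 to 0.0686)).

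**Figure D4:**
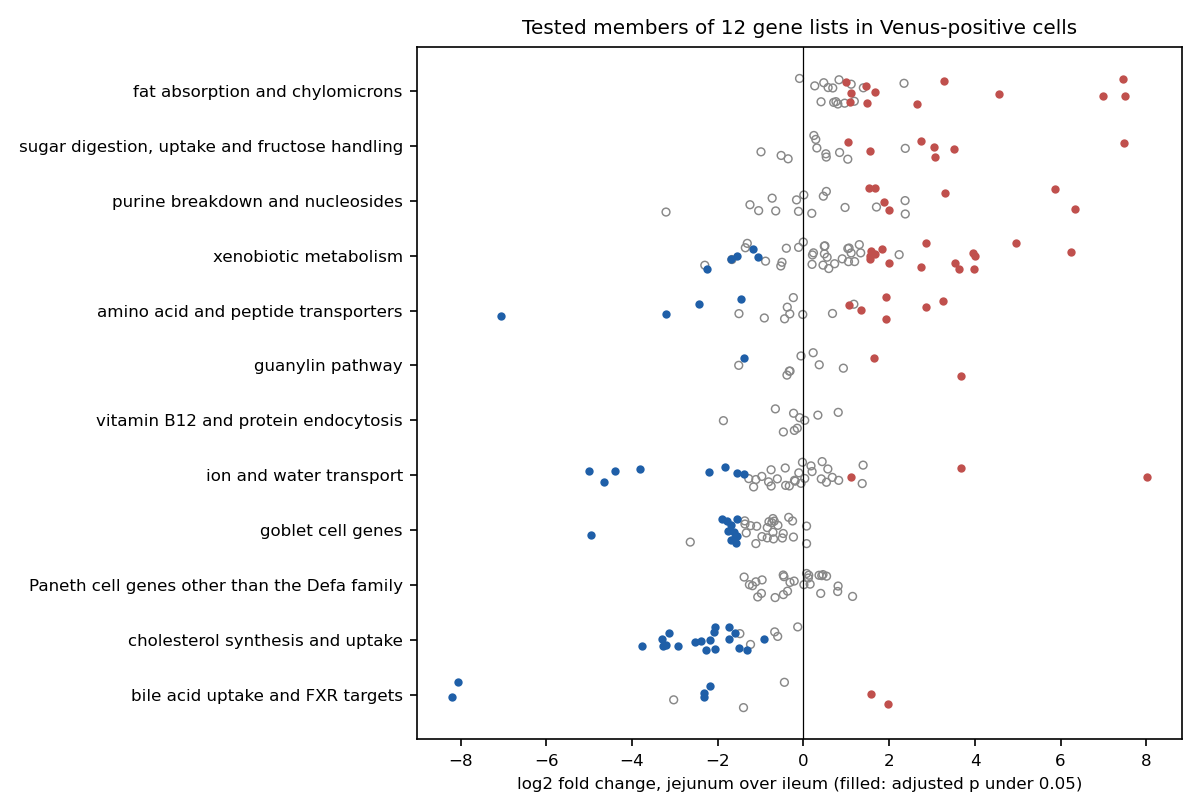
Log2 fold change of jejunum over ileum (x axis) for the tested members of 12 gene lists (rows) in Venus-positive cells, with filled red points called higher in jejunum, filled blue points called higher in ileum and open points not called. Members with no count in any library of 1 region are not drawn. Points of the cholesterol and goblet cell lists lie mostly left of 0 and those of the fat and sugar lists mostly right of 0, at medians of -2.06, -1.10, 1.11 and 0.94.

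Goblet cell genes leaned to ileum. Of 36 tested, 11 were higher in ileum and none in jejunum (median log2 fold change -1.10). Clca1, a secreted protein of goblet cell mucus, was at 394, 165 and 512 in the jejunum libraries and 1712, 741 and 1017 in the ileum libraries (log2 fold change -1.70 ± 0.41, adjusted p = 0.0105). Gcnt3, a mucin glycosyltransferase, was at 16.2, 9.71 and 21.6 in the jejunum libraries and 66.3, 31.4 and 66.1 in the ileum libraries (log2 fold change -1.79 ± 0.32, adjusted p = 0.000484). Muc2, the gel-forming mucin, was at 209, 111 and 155 in the jejunum libraries and 516, 206 and 397 in the ileum libraries (log2 fold change -1.24 ± 0.41, adjusted p = 0.0793) and did not pass with edgeR, although it did with DESeq2 (adjusted p = 0.0385), without a filter, with the i5 index as a covariate, with library size alone and without ileum library 2. Tff3, the trefoil peptide of goblet cells, also did not pass, at 301, 137 and 398 in the jejunum libraries and 663, 331 and 364 in the ileum libraries (log2 fold change -0.70 ± 0.37, adjusted p = 0.338). In Clca1 and Gcnt3 the regions were separate, and in Muc2 and Tff3 they overlapped. The count was 7 without jejunum library 1, 3 without ileum library 1, 3 without jejunum library 2, and the median was -0.55 without ileum library 1 and -0.68 without jejunum library 2. Clca1 lost its call when libraries were removed (Clca1 without jejunum library 2 or ileum library 1 (log2 fold change -1.33 to -1.30, adjusted p 0.0984 to 0.0992)).

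None of 27 tested Paneth cell genes and none of 11 tested defensins passed with edgeR. At an unadjusted p under 0.05 there were 4 and 0, and DESeq2 called 0 and 0. Lyz1, lysozyme, was at 1016, 302 and 4266 in the jejunum libraries and 2101, 1016 and 2043 in the ileum libraries (log2 fold change 0.11 ± 0.64, adjusted p = 0.974). Defa24, an alpha-defensin, was at 3747, 991 and 8532 in the jejunum libraries and 5837, 2266 and 3262 in the ileum libraries (log2 fold change 0.22 ± 0.60, adjusted p = 0.921). Jejunum library 3 was the highest and jejunum library 2 the lowest of all libraries for both genes. The direction of both turned without jejunum library 3 (log2 fold change -1.39 for Lyz1 and -0.68 for Defa24), without ileum library 2 (-0.15 and -0.04) and with library size alone (-0.17 and -0.05), never past the threshold. Without jejunum library 3, 5 of the Paneth genes and 3 of the defensins were called higher in ileum.

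Several antimicrobial and inflammatory genes were higher in ileum. Saa1, serum amyloid A, was at 0.128, 2.06 and 1.75 in the jejunum libraries and 32.5, 188 and 114 in the ileum libraries (log2 fold change -6.39 ± 0.83, adjusted p = 3.57e-06). Reg3b, a bactericidal lectin, was at 515, 964 and 1895 in the jejunum libraries and 3729.8, 7079 and 6485 in the ileum libraries (log2 fold change -2.36 ± 0.62, adjusted p = 0.0198). Its relative Reg3g did not pass, at 258, 836 and 981 in the jejunum libraries and 1255, 3533 and 2673 in the ileum libraries (log2 fold change -1.85 ± 0.63, adjusted p = 0.0914), other than without a filter and with library size alone. All ileum libraries lay above the jejunum libraries in these genes. Of 5 tested Reg family lectins, 1 was higher in ileum and none in jejunum (median log2 fold change -0.25). The count was 0 without jejunum library 1 or 2 or ileum library 2, and the median was 0.14 without jejunum library 2. In Venus-negative cells, 3 of the 5 were higher in jejunum and none in ileum (median 2.34), beside 1.70% and 0.405% of all genes tested. Of 29 tested chemokine, antimicrobial and barrier genes, 4 were higher in ileum, beside 3.00% of all genes tested, and none in jejunum. Besides Saa1 they were Lypd8, which keeps bacteria off the epithelium (log2 fold change -1.46 ± 0.35, adjusted p = 0.00996), Pglyrp1, which binds peptidoglycan (log2 fold change -1.60 ± 0.44, adjusted p = 0.0271), and Duoxa2, the maturation factor of a hydrogen peroxide generator (log2 fold change -2.81 ± 0.76, adjusted p = 0.0247). Duoxa2 overlapped between regions, at 1.79, 7.08 and 19.4 in the jejunum libraries and 4.52, 114 and 78.9 in the ileum libraries. The count of 4 was 1 without jejunum library 1, 1 without jejunum library 2, 2 without ileum library 2, 2 without ileum library 3. In Venus-negative cells, 4 genes of this list were higher in jejunum and 1 in ileum, beside 1.70% and 0.405% of all genes tested. The call was lost for Reg3b without jejunum library 1 or 2 or ileum library 2 (log2 fold change -2.23 to -2.01, adjusted p 0.0567 to 0.134), Lypd8 without jejunum library 1 or 2 (log2 fold change -1.28 to -1.21, adjusted p 0.0978 to 0.111), Pglyrp1 without jejunum library 1 or 2 or ileum library 2 or 3 (log2 fold change -1.56 to -1.26, adjusted p 0.0662 to 0.189) and Duoxa2 without jejunum library 1 or 2 or ileum library 2 or 3 (log2 fold change -2.65 to -2.15, adjusted p 0.0538 to 0.136). Card9, an adaptor of fungal and bacterial sensing, was at 0, 0.614 and 0 in the jejunum libraries and 7.21, 16.04 and 18.1 in the ileum libraries (log2 fold change -5.93 ± 1.25, adjusted p = 0.00303), a call that was lost with DESeq2 (adjusted p = 0.136). Gbp8, a guanylate-binding protein, was read at 0, 0.112 and 0.0729 in jejunum and 2.31, 12.1 and 7.502 in ileum (adjusted p = 0.00045). It was the only call among 37 tested interferon response genes, and none of 10 tested genes of MHC class II presentation passed with edgeR (1 at an unadjusted p under 0.05, 1 with DESeq2).

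Gcnt1, which starts core 2 branches on mucin-type glycans, was among the ileum-high genes named by rank. It had no count in any jejunum library and stood at 9.80, 25.5 and 17.9 in ileum, at least 81.2-fold higher (adjusted p = 4.88e-07). Muc3a, a membrane mucin, was at 2.24, 3.57 and 2.04 in the jejunum libraries and 12.5, 10.2 and 10.8 in the ileum libraries (log2 fold change -2.09 ± 0.35, adjusted p = 0.000148). Of 29 tested membrane mucins and surface glycosylation genes, 5 were higher in ileum and 1 in jejunum, and the ileum-high count was 3 without jejunum library 1, 3 without ileum library 2. The jejunum-high call was lost without jejunum library 1 or 2 or ileum library 1 or 2, with library size alone, without a filter and with the compared libraries alone. Remaining ileum-high genes of large size included Slc25a48, a mitochondrial carrier, at 0.0639, 0.223 and 0.146 in the jejunum libraries and 34.2, 77.5 and 46.5 in the ileum libraries (log2 fold change -8.41 ± 0.81, adjusted p = 1.74e-08). Tat, which degrades tyrosine, was at 0.0639, 0.614 and 0.292 in the jejunum libraries and 8.83, 23.4 and 12.1 in the ileum libraries (log2 fold change -5.45 ± 0.81, adjusted p = 3.99e-05). Abi3bp, an extracellular matrix protein, was at 0.320, 0.112 and 0 in the jejunum libraries and 10.6, 12.02 and 20.1 in the ileum libraries (log2 fold change -6.52 ± 1.12, adjusted p = 0.000291). The tetratricopeptide protein Ttc36 was at 0.192, 0 and 0.365 in the jejunum libraries and 10.2, 7.39 and 12.1 in the ileum libraries (log2 fold change -5.73 ± 1.08, adjusted p = 0.000759). None of these overlapped between regions. Rnf180, a ubiquitin ligase, held a single read in all jejunum libraries together and 5.599, 8.95 and 9.27 in ileum (adjusted p = 3.63e-05). The gene ccdc198 held none in jejunum and 8.40, 3.79 and 6.10 in ileum, at least 27.9-fold higher (adjusted p = 6.44e-08).

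Hormone genes, which mark enteroendocrine cells, were low in Venus-positive cells. Gip was at 7.67, 9.54 and 11.1 in the jejunum libraries and 0.754, 0.240 and 0.0736 in the ileum libraries (log2 fold change 4.61 ± 0.57, adjusted p = 1.6e-06). Pyy was at 1.15, 0.0558 and 0.656 in the jejunum libraries and 3.71, 6.43 and 5.002 in the ileum libraries (log2 fold change -3.03 ± 0.73, adjusted p = 0.00996). Among 29 tested enteroendocrine genes these were the only calls, and that of Pyy was lost (Pyy without jejunum library 2 (log2 fold change -2.45, adjusted p = 0.0617)). In Venus-negative cells Gip was at 375, 339 and 72.5 in jejunum and 3.34, 6.70 and 3.88 in ileum. Markers of tuft cells gave no call among 14 tested with edgeR (5 at an unadjusted p under 0.05, 1 with DESeq2). Immune cell genes gave none among 15 (2 at an unadjusted p under 0.05, 0 with DESeq2), and stromal and endothelial genes 1 among 8. Over all genes tested, 2584 of 15044 were at an unadjusted p under 0.05 with edgeR. No stromal or endothelial gene was called without jejunum library 1, 2 or 3 or ileum library 1 or 3. The same held with the compared libraries fitted alone, where 1 was tested. The defining immune gene Ptprc was at 0, 0.614 and 0.583 in the jejunum libraries and 0.700, 4.39 and 0.294 in the ileum libraries, with ileum library 2 the highest.

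The regional comparison in Venus-negative cells called 317 of 15044 genes (2.11%), with 256 (1.70%) higher in jejunum and 61 (0.405%) higher in ileum. Of the 323 jejunum-high genes of Venus-positive cells, 132 (40.9%) were also called in Venus-negative cells in the same direction, which was 51.6% of the 256. Of the 452 ileum-high genes, 42 (9.29%) were also called, which was 68.9% of the 61. Signs were the same in the Venus-negative cells for 281 and 378 of them. The share of equal signs over all genes tested was not counted, so these counts are a description only. Apoa4 (log2 fold change 7.23 ± 0.63, adjusted p = 4.48e-09), Lct (log2 fold change 7.45 ± 0.57, adjusted p = 1.01e-09), Slc10a2 (log2 fold change -6.30 ± 0.63, adjusted p = 6.36e-08), Gata4 (log2 fold change 4.82 ± 0.38, adjusted p = 1.01e-09) and Hoxb9 (log2 fold change -7.00 ± 0.67, adjusted p = 4.91e-08) were among the genes called in both sorts. Under scaling by library size alone, the negative cells gave 115 genes higher in jejunum and 560 higher in ileum, and their median log2 fold change moved from 0.01 to -0.61. Without ileum negative library 1, 139 genes were called higher in jejunum, and without jejunum negative library 3, 40 were called higher in ileum.

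A test of the difference itself, the interaction of region and sort, called 40 genes (0.266%), of which 11 leaned to jejunum in Venus-positive cells and 29 to ileum. Creb3l2, an endoplasmic reticulum stress transducer, was at 135, 99.2 and 90.4 in the jejunum libraries and 9.64, 6.25 and 4.93 in the ileum libraries in Venus-positive cells and at 7.36, 15.7 and 8.71 in jejunum and 5.32, 6.63 and 2.66 in ileum in Venus-negative cells (difference of log2 fold changes 2.85 ± 0.53, adjusted p = 0.00857). Itpr1, a calcium release channel (2.63 ± 0.49, adjusted p = 0.00857), Nek6, a mitotic kinase (2.09 ± 0.39, adjusted p = 0.00857), Pisd, which makes phosphatidylethanolamine (2.59 ± 0.51, adjusted p = 0.0164), and Aqp1 (2.60 ± 0.48, adjusted p = 0.00848) differed between sorts in the same direction. Each was called higher in jejunum in Venus-positive cells and did not pass in Venus-negative cells. Sema3c, a secreted guidance protein, was at 0.256, 0.446 and 1.24 in the jejunum libraries and 11.3, 18.6 and 29.6 in the ileum libraries in Venus-positive cells and at 9.33, 6.05 and 7.92 in jejunum and 14.6, 5.89 and 13.2 in ileum in Venus-negative cells (-4.43 ± 0.63, adjusted p = 0.00106). Aldh1a1 was higher in ileum in Venus-positive cells and higher in jejunum in Venus-negative cells (log2 fold change 1.63 ± 0.29, adjusted p = 0.000834), at 44.9, 29.3 and 59.9 and 9.65, 17.3 and 16.4 there, and the sorts differed (-2.80 ± 0.41, adjusted p = 0.00106). Car4 behaved alike (-4.48 ± 0.75, adjusted p = 0.00436), and these were the only 2 genes called in opposite directions. Il18, an epithelial cytokine, was at 17.6, 19.8 and 26.3 and 1.65, 4.62 and 4.32 in Venus-negative cells, and at 10.7, 12.7 and 16.6 in the jejunum libraries and 18.5, 22.1 and 16.6 in the ileum libraries in Venus-positive cells (-3.11 ± 0.50, adjusted p = 0.00308). The count of 40 moved to 226 without jejunum positive library 3, to 24 without jejunum positive library 1 or ileum negative library 1, to 25 without jejunum negative library 1, and to 26 without ileum negative library 2 or jejunum negative library 3. Without the other libraries it stayed within 1.5 times.

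**Figure D5:**
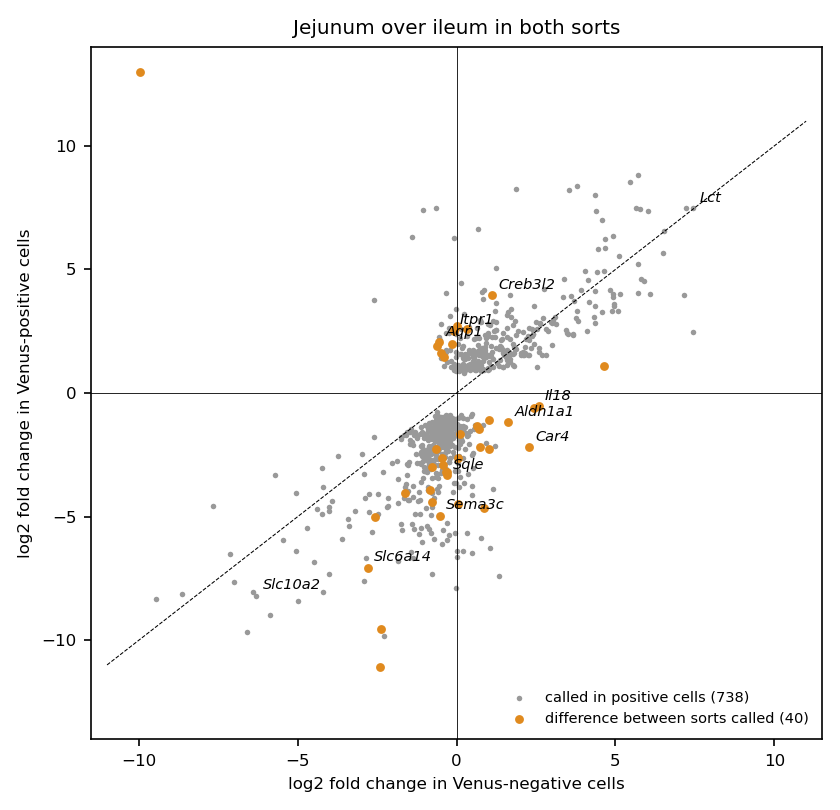
Log2 fold change of jejunum over ileum in Venus-positive cells (y axis) against that in Venus-negative cells (x axis), for the genes called in Venus-positive cells (grey) and the 40 genes whose difference between sorts was called (orange). The dashed line marks equal fold changes. Lct lies near the line, Slc10a2 lies at the other end, at -8.20 against -6.30 (difference between sorts not called), and Creb3l2 and Sema3c lie away from the line.

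Levels in Venus-positive cells of the neighbouring regions, 3 libraries each, are set beside these as a description, since they bear on where along the gut a gene is read. Apoa4 averaged 1217 ± 559 (SD) in duodenum and 14.2 ± 2.27 in colon. Slc10a2 averaged 2.24 ± 0.947 in duodenum and 115 ± 22.4 in colon, so that colon lay below the ileum libraries and above the jejunum libraries. Slc6a14 averaged 209.5 ± 2.42 in colon, above every ileum library, and 0.478 ± 0.566 in duodenum. Hoxb9 averaged 16.9 ± 2.38 in colon and 0.0750 ± 0.130 in duodenum. Onecut2 averaged 67.7 ± 17.3 in duodenum, above every jejunum library, and 0.116 ± 0.148 in colon. Enpp7 averaged 5.87 ± 4.07 in duodenum, far below the jejunum libraries, and 1.03 ± 0.279 in colon. Sqle averaged 30.0 ± 6.21 in duodenum and 21.9 ± 6.25 in colon, both between the jejunum and the ileum libraries.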

How the data were processed

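From sorted cells, 10 ng of RNA was made into libraries with the SMARTer stranded total RNA pico kit and sequenced as single-end reads. The authors aligned the reads to GRCm38 with STAR (version 2.5.1 in the submitters' processing notes) and deposited counts per gene without normalisation. The annotation and strand setting used for counting are not given in the sources used here, so that overlapping and antisense genes may share reads. Lines of the table for reads outside genes, unmapped, multimapping or ambiguous held between 51.9% and 60.6% of the reads in the 6 libraries and were left out.

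Groups were taken from the labels, and the series design gives triplicates from 3 different mice, but no label names the mouse, so that libraries were not paired. The comparison and the gene lists were chosen with earlier results of these data known, while the libraries of the comparison follow from their labels alone.

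Counts were fitted with edgeR 4.0.16 in R 4.3.3 (TMM normalisation, filterByExpr with a minimum count of 10 and a total of 15, quasi-likelihood test, 1 coefficient per group over all 24 libraries). Adjusted p values are Benjamini-Hochberg over 15044 genes. The code was tested on simulated counts. Normalised CPM is counts per 1000000 of the TMM-scaled library. Genes at 0 in a whole group were given as bounds at 3 counts. Symbols and biotypes were from GENCODE M21, which held 53360 of 53465 genes, and promoters from the RefSeq table. Values after ± are standard errors of log2 fold changes, or SDs where marked.

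The text names the 15 protein-coding genes with the largest fold change in each direction (adjusted p under 0.05, no overlap of libraries, at least 5 normalised CPM in the higher group), the 5 genes with the smallest adjusted p in each direction of the interaction, list members that passed or define a list's function, and the guanylin genes. Not every list member that passed is named, since the others are given in the counts, and a few genes are not reported here. Alternatives were DESeq2 1.42.0, other size factors, other filters, the i5 index as a covariate, the compared libraries alone, stricter thresholds, and each library left out in turn.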

Additional observations from a re-analysis of the deposited data

Results flagged for a closer look

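The interaction called 40 genes, of which the 22 given here are those named elsewhere in the text. They stand here because the difference between jejunum and ileum was itself different in Venus-positive and Venus-negative cells, by edgeR's test of the interaction at an adjusted p under 0.05. The values are differences of log2 fold changes, Venus-positive minus Venus-negative, so that a positive value leans to jejunum in Venus-positive cells. They leaned to jejunum for Creb3l2 (2.85), Itpr1 (2.63), Aqp1 (2.60), Pisd (2.59) and Nek6 (2.09). Among transporters and ion-handling genes they leaned to ileum for S100g (-5.50), Car4 (-4.48), Slc6a14 (-4.27), Car12 (-3.63), Trpm6 (-3.09), Slc1a1 (-2.89) and Slc13a1 (-2.42). Among cholesterol genes the values were -3.01 for Sqle, -2.87 for Fdft1 and -1.61 for Srebf2. Sema3c stood at -4.43, Il18 at -3.11, Aldh1a1 at -2.80 and Lypd8 at -2.18. The fitted values of Gcnt1 (-8.64), ccdc198 (-7.15) and Plekhh2 (22.96) depend on the prior count, since each had groups at or near 0. Of these 22 genes, 13 kept an adjusted p under 0.05 whichever of the 12 libraries was left out, and all 22 kept the direction. The others kept the call in fewer fits, down to 2 of 12 for Srebf2 and Lypd8, whose adjusted p reached 0.135 and 0.218.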

How the results depend on the processing

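No paired analysis was run because the labels do not name the mouse, and a fit blocked on the replicate number was not tried. The cause of each shift below was not tested. In Venus-positive cells, the counts of genes higher in jejunum and in ileum (323 and 452) were 207 and 690 with library size alone, and 194 and 216 at an adjusted p under 0.01. The ileum-high count was 279 when at least 10 counts were required in each compared library, so that fewer genes were tested, and 274 with the compared libraries fitted alone. Leaving out 1 library gave 216 to 322 genes higher in jejunum and 228 to 696 higher in ileum, with 696 without jejunum library 3, 228 and 235 without jejunum libraries 2 and 1, 292 without ileum library 1, and 218 and 216 higher in jejunum without jejunum library 1 and ileum library 2. DESeq2 called 454 and 633. In Venus-negative cells (256 and 61), the jejunum-high count was 115 with library size alone, 151 with at least 10 counts, 385 with the i5 index as a covariate, 147 at an adjusted p under 0.01, and 139 to 290 with 1 library left out. The ileum-high count there was 560, 25, 93 and 37 in that order, 119 without a filter, 117 with DESeq2, and 40 to 67 with 1 library left out. The 174 genes called in the same direction in both sorts became 94 with at least 10 counts, 113 at an adjusted p under 0.01, and 134 to 168 with 1 library left out. The interaction (40) gave 143 without a filter, 94 with the i5 index, 26 with the compared libraries alone, 128 with DESeq2, 18 at an adjusted p under 0.01, and 24 to 226 with 1 library left out, the highest without jejunum library 3 of the Venus-positive cells. Of 117 genes named and called in Venus-positive cells, 86 kept direction and call in every alternative fitted for them. Library size alone ended the calls of Dgat1, Dgat2, Abcg5, Treh, Khk, Slc3a2, Slc43a2 and Cldn15, all jejunum-high, and DESeq2 those of Aqp3 and Card9. The compared libraries fitted alone ended those of Cftr, Slc7a5, Car1, Nt5e, Spdef, Clca1, Duoxa2 and Pglyrp1. That fit gave 4 goblet cell genes in place of 11, and 4 jejunum-high purine and nucleoside genes in place of 7. It also gave 3 ileum-high membrane mucin and glycosylation genes in place of 5. Jejunum-high chemokine and antimicrobial genes were 2 there, as with DESeq2, where there had been none. No filter ended the calls of Abcg5 and Klf5, and the i5 index that of Plekhh2. Without a filter, the ileum-high counts were 8 for xenobiotic metabolism (5), 7 for chemokine and antimicrobial genes (4), 8 for membrane mucins and glycosylation (5) and 5 for stem and proliferating cell genes (2), the last being 6 with library size alone. The sign turned in some fits for 4 genes that were not called and for Plekhh2. With library size alone the log2 fold change was -0.17 for Lyz1, -0.05 for Defa24 and -0.01 for Vil1. With 1 library left out, Hnf4a ranged from -0.42 to 0.05, Lyz1 from -1.39 to 0.65, Defa24 from -0.68 to 0.73 and Plekhh2 from -1.80 without jejunum library 2 to 14.82. Genes near the floor of 3 counts are limited by depth.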

Other observations

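Plekhh2, which was chosen after its values were seen, was read at 713 normalised CPM in jejunum library 2 of the Venus-positive cells and at 0 in the other jejunum libraries. In the ileum libraries it stood at 0, 0 and 0.0736. Among Venus-negative libraries it was at 222 and 896 in ileum libraries 2 and 3, and at most 0.907 in the jejunum libraries and ileum library 1.

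Of 76 tested cytosolic ribosomal protein genes, 3 were higher in ileum and none in jejunum by edgeR (median log2 fold change -0.64), beside 3.00% of all genes tested. The ileum count was 18 without jejunum library 3 (median -1.09), 0 without jejunum library 1, jejunum library 2 (median -0.38) or ileum library 1 (median -0.40), 1 without ileum library 2 or with the compared libraries alone, and 10 with library size alone. Of 33 tested genes of fatty acid oxidation, ketogenesis and PPAR-alpha targets, 4 were higher in jejunum and none in ileum (median 0.61), beside 2.15% of all genes tested. The jejunum count there was 7 with DESeq2 and 8 with the i5 index as a covariate, and the median was 0.34 with library size alone.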
